A study of Mus musculus with 4 samples.

Results

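The replication-dependent histone genes were the 63 genes, of 25804 gene symbols listed in the 4 libraries, whose symbols mark the clustered core histones (H2ac, H2bc, H3c and H4c genes with a number) or the linker histones H1f1 to H1f5. They comprised 5 linker H1 genes, 17 H2A genes, 17 H2B genes, 12 H3 genes and 12 H4 genes. In the GENCODE vM21 annotation (GRCm38), 53 of them lie on chromosome 13 and 10 on chromosome 3. Each nucleosome wraps DNA around an octamer of H2A, H2B, H3 and H4, and H1 binds the linker DNA between nucleosomes. The replication-dependent genes supply these proteins while DNA is copied in S phase. Their messages typically lack a polyA tail and end instead just past a short stem-loop that is bound by the stem-loop binding protein SLBP, while a smaller share is cleaved downstream and polyadenylated.

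The libraries came from mouse skeletal muscle cells of the genotype Pax7-nGFP, in which a nuclear GFP marks cells that express the satellite cell factor Pax7, and were made with a droplet 3′ kit that primes cDNA on polyA. Freshly isolated satellite cells (fiSC) were GFP+ sorted from limb muscles of 3 male animals aged 13 weeks, pooled. Activated satellite cells (ASC) were GFP+ sorted from 17 pooled tibialis anterior muscles of male and female mice aged 18 to 24 weeks, 3 days after an injection of 10 µM cardiotoxin, a toxin that injures muscle fibres. Cultured myoblasts were at passage 2, from 1 male mouse aged 16 weeks, in a serum medium with 10 ng/ml basic FGF. MPC (myogenic progenitor cells) derived from a parental male mouse aged 16 weeks: after 2 passages in the myoblast medium, 5 further passages followed in a serum medium with 5 µM forskolin, 5 µM RepSox, 3 µM of the compound labelled CHIR9901 and the same FGF. Each condition was 1 library, so no replicate spread exists and no test between conditions was possible. Intervals are 95% and cover counting error alone. Injury, animals, age, sex, muscles and library preparation cannot be told apart in the comparison of ASC with fiSC. Nor can medium, passage and library preparation in that of MPC with myoblasts. Comparisons of a culture with a sorted library join culture, animals, age and library preparation in the same way.

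The sequences that bear on how a polyA-primed library sees these genes lie at the 3′ end. The stem-loop, searched on the sense strand of annotated transcripts as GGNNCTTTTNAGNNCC, was found in 40 of the 63 members (63.5%), against 89 of all 55450 annotated genes (0.161%). The sites of the members the results turn on are shown with the 16 bases of the stem-loop in capitals and the 12 bases before it in lower case:
H1f2: aacaatccaaaaGGCTCTTTTCAGAGCC
H1f3: aaaatctcaaacGGCTCTTTTCAGAGCC
H1f4: caacaacccaaaGGCTCTTTTCAGAGCC
H2ac24: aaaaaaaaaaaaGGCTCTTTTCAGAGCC
H2ac23: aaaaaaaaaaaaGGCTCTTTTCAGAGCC
H2ac8: aaaaaaaacaaaGGCTCTTTTCAGAGCC
H2ac18: agctcctaaaaaGGCTCTTTTCAGAGCC
H3c3: tatttaaaaaaaGGCTCTTTTAAGAGCC
H4c4: ccaaaaaccaaaGGCCCTTTTCAGGGCC
H2ac24, at chr13:21833026-21833507 on the minus strand, and its neighbour H2ac23 carry a run of 12 A directly before the stem-loop. In the last 300 bases of the other members' transcripts, the longest A run was 8 bases or shorter. The annotated transcripts of H1f5 (743 bases), H1f1 (741 bases) and H2bc4 (1156 bases) held no match. Transcripts of 18 members, among them H1f2, H1f3, H1f4, H2ac8 and H4c4, were annotated to run at least 100 bases past the stem-loop, while those of 22 others ended near it. A match describes the annotation and does not show which end was used in these cells.

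The promoters of the H1 gene and the H2A gene with the highest levels are shown as the RefSeq table gives them (GRCm38.p6), 300 bases around the annotated start, both on the minus strand. H1f5 is at chr13:21780576-21780875 and H2ac24 at chr13:21833426-21833725. Capitals mark matches on either strand, which can read as the reverse complement, to CCAAT, to the TATA box TATAAA and to the octamer ATTTGCAT:
H1f5: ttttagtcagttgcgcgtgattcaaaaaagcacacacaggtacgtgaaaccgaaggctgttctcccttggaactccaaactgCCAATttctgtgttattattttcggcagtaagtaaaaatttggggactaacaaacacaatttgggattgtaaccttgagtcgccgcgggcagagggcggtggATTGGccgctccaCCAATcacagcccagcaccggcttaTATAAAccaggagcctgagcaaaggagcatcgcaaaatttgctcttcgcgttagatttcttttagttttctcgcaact
H2ac24: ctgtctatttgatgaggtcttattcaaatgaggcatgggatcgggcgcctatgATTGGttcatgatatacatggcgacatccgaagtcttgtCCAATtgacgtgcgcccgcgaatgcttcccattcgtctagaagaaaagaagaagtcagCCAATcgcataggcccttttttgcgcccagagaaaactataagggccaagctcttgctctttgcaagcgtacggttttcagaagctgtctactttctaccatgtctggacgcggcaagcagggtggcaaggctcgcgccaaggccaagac
The table held 57 of the 63 members. CCAAT was present in 49 of the 57 (86.0%), against 10248 of all 27025 promoters in the table (37.9%). The members without it were H4 genes, of which 3 of 11 held it. TATAAA was present in 34 members (59.6%, against 14.2% of all promoters) and ATTTGCAT in 12 (21.1%, against 1.75%), which were 6 H2A and 6 H2B genes.

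After filtering, 2185 fiSC, 6448 ASC, 2351 myoblast and 9059 MPC cells remained, with median UMI counts between 8760 and 22843. Clusters were named from marker genes. Myogenic progenitor-like cells were 97.3% of fiSC, 41.2% of ASC, 73.0% of myoblasts and 34.1% of MPC. The ASC library went against its label: 47.1% of its cells were macrophage-like, its 14 macrophage markers summed to 10350 CPM (UMIs of a gene per 1000000 UMIs of the cells) against 6.54 to 31.6 CPM in the other libraries, and Pax7 was at 88.0 CPM against 670 to 1116 CPM. Within progenitor-like cells too, the 12 progenitor markers were low in ASC. They summed to 1067 CPM there, against 7030 CPM in fiSC, 3360 CPM in myoblasts and 2333 CPM in MPC. Muscle differentiation-like cells were 14.0% of myoblasts and 28.6% of MPC. The unnamed clusters held 32.8% of MPC cells, 11.6% of myoblasts and 10.8% of ASC. The myoblast and MPC libraries shared 164 cell barcodes, of which 10 were retained in both, and other pairs shared 4 to 27. Because cell types differ between the libraries, the summed levels and the comparisons of libraries below are given over all retained cells and again in progenitor-like cells, and other values over all retained cells unless a cell set is named. The shares depend on the clustering: at resolution 1.0 in place of 0.5, progenitor-like cells were 29.5% of ASC and 53.6% of MPC, unnamed cells 23.3% of ASC, and muscle differentiation-like cells 18.8% of MPC.

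Summed over the 63 genes, histone transcripts were scarce in fiSC and abundant in the other libraries. They made up 138 CPM in fiSC (133 to 144), 2398 CPM in ASC, 1555 CPM in myoblasts and 1286 CPM in MPC. In progenitor-like cells the sums were 121, 3143, 1844 and 1310 CPM in the same order, so fiSC remained lowest and ASC highest. The cell cycle markers followed a different order. Mki67, a nuclear protein of cycling cells, was at 8.46, 158, 156 and 286 CPM, and Pcna, the sliding clamp of DNA polymerase, at 75.4, 161, 79.8 and 139 CPM. MPC thus had the highest Mki67 level and the lowest histone sum of the 3 libraries with cycling cells. Without H2ac24 the sums were 2384, 1022 and 999 CPM in ASC, myoblasts and MPC, so the cultures then lay close together. In progenitor-like cells they were 3124, 1183 and 995 CPM.

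Most single cells showed few histone UMIs. When each cell was thinned to 2000 UMIs, at least 1 histone UMI was present in 19.4% of fiSC, 71.9% of ASC, 62.9% of myoblasts and 59.6% of MPC. At least 5 were present in 0.141% of fiSC, 25.2% of ASC, 18.6% of myoblasts and 21.5% of MPC. Without thinning, the share of cells with a histone UMI was 50.9% in fiSC, 98.4% in ASC, 94.4% in myoblasts and 91.7% in MPC, at median depths of 8760, 19810.5, 22843 and 13210 UMIs. No cell type present is known to lack these genes, so the share that free RNA gives could not be measured.

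Of the 63 members, 30 reached 10 CPM in at least 1 library and 33 did not. One of the latter, H2bc1, had 0 UMIs in all 4. A UMI was seen for 49 members in fiSC, 61 in ASC, 58 in myoblasts and 59 in MPC, and a level of 10 CPM or more for 4, 29, 17 and 16. Of the 30, 25 were highest in ASC and 5 in myoblasts. A CPM counts captured 3′ ends and needs no length correction, but because tails and A-rich stretches differ between the genes, an order of levels is an order of captured ends.

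**Figure D1:**
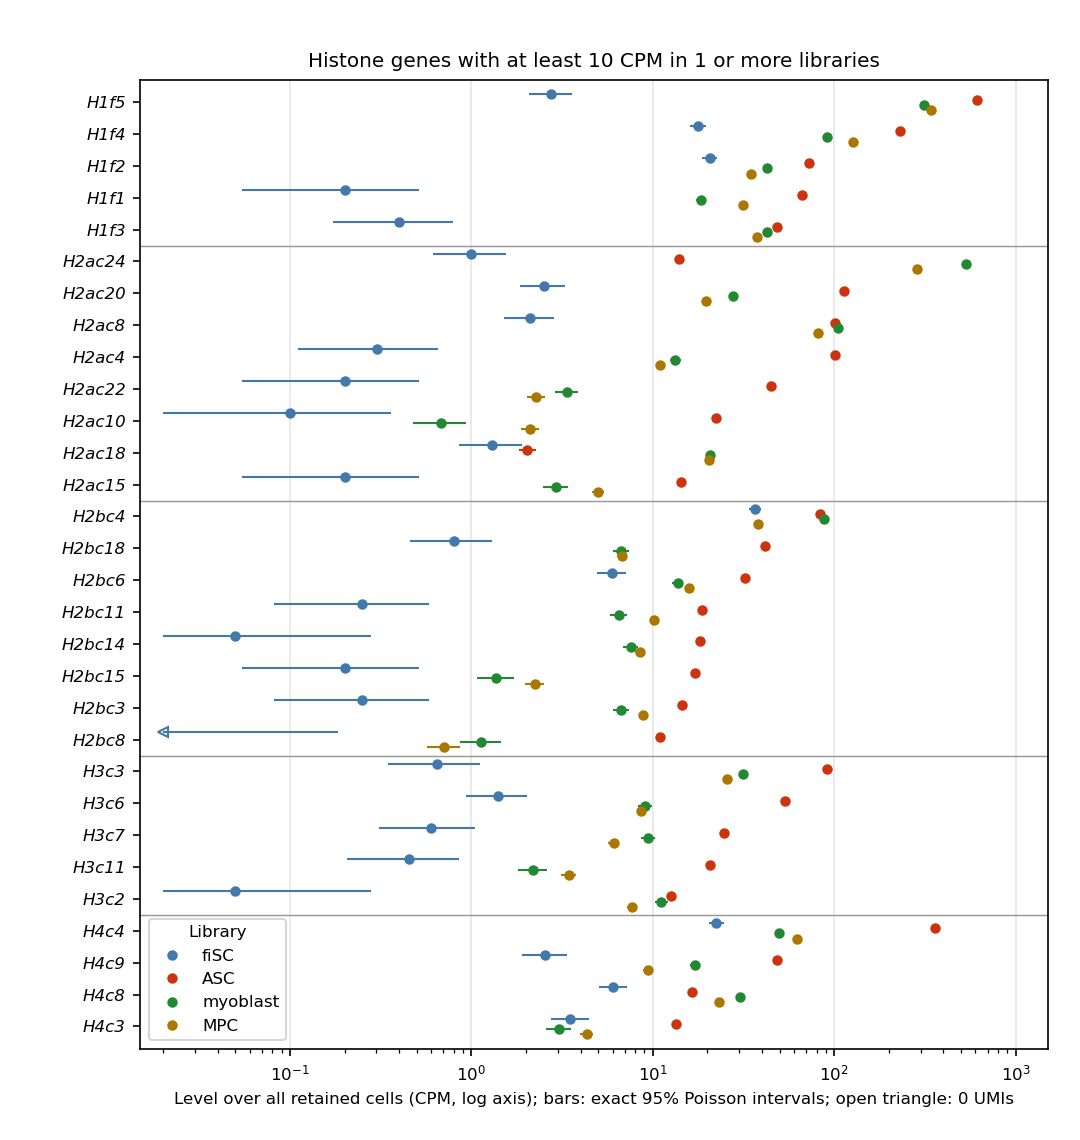
Levels of the 30 histone genes with at least 10 CPM in 1 or more libraries, as CPM over all retained cells on a log axis, grouped by family; bars are exact 95% Poisson intervals and the open triangle marks 0 UMIs. The fiSC points lie lowest for most genes, while H2bc4 and H1f2 vary least and H2ac24 reaches 534 CPM in myoblasts against 13.9 CPM in ASC.

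The linker histone H1f5 had the highest level of any member in ASC and MPC. Its level in fiSC was 2.75 CPM, and those in ASC, myoblasts and MPC were 616, 314 and 341 CPM. H1f4 was at 17.8, 229, 91.3 and 126 CPM in the same order. These genes were lowest in fiSC and highest in ASC, as were the other H1 genes. H1f1 was at 0.20, 66.2, 18.4 and 31.3 CPM, and H1f3 at 0.40, 48.6, 42.7 and 37.6 CPM. H1f2 had the smallest range of the family, with 20.6, 73.0, 42.4 and 34.7 CPM. Together the 5 H1 genes made up 30.2% of histone UMIs in fiSC, 43.1% in ASC, 32.7% in myoblasts and 44.4% in MPC. None of H1f5, H1f1, H1f2 and H1f3 shared a 60-base stretch of its last 300 bases with another gene, whereas all such stretches of H1f4 also lie in H2bc6, which overlaps it.

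The H2A genes, which encode a core histone paired with H2B, included members that were higher in the cultures than in ASC and members that were lower. H2ac24 reached 1.00 CPM (fiSC), 13.9 CPM (ASC), 534 CPM (myoblasts) and 286 CPM (MPC), so both cultures were far above both sorted libraries. It was the highest member in myoblasts, with 34.3% of histone UMIs there and 0.581% in ASC. H2ac18 was also higher in the cultures, with 1.30, 2.04, 20.8 and 20.5 CPM. H2ac8 was similar in the 3 libraries with cycling cells, at 2.10 CPM in fiSC and then 101, 105 and 81.1 CPM. The reverse order held for H2ac20 (2.50, 113, 27.8 and 19.6 CPM), H2ac4 (0.30, 101, 13.3 and 11.0 CPM), H2ac22 (0.20, 44.8, 3.35 and 2.29 CPM), H2ac10 (0.100, 22.3, 0.678 and 2.11 CPM) and H2ac15 (0.20, 14.2, 2.91 and 4.97 CPM), all highest in ASC. H2A genes made up 6.55%, 18.0%, 46.2% and 34.1% of histone UMIs in fiSC, ASC, myoblasts and MPC, and 5.31%, 18.4%, 48.1% and 35.6% in progenitor-like cells. H2ac24 alone held 534 of the 719 CPM of H2A genes in myoblasts, 286 of 438 CPM in MPC and 13.9 of 431 CPM in ASC. Assignment within this family is uncertain, since all 60-base stretches near the annotated 3′ ends of H2ac24 and of H2ac18 also occur in other H2A genes.

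H2bc4, an H2B gene, was the highest member in fiSC. It was at 36.5, 83.9, 87.9 and 38.1 CPM in fiSC, ASC, myoblasts and MPC, so fiSC and MPC lay at the same level. The remaining 7 H2B genes that reached 10 CPM were highest in ASC: H2bc18 was at 0.801, 41.3, 6.67 and 6.78 CPM and H2bc6 at 5.96, 32.2, 13.7 and 15.9 CPM. H2bc11, H2bc14, H2bc15 and H2bc3 lay between 14.5 and 18.6 CPM in ASC and between 0.0501 and 0.25 CPM in fiSC. H2bc8 had 0 UMIs in fiSC, which allows up to 0.150 CPM, and 11.0, 1.14 and 0.708 CPM in the others. H2B genes held 32.7% of histone UMIs in fiSC and 8.14% to 10.6% elsewhere.

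H3 and H4 genes form the tetramer at the centre of the nucleosome. H3c3 led the H3 genes with 0.651, 90.9, 31.3 and 25.7 CPM, followed by H3c6 with 1.40, 53.3, 9.05 and 8.64 CPM. H3c7, H3c11 and H3c2 lay between 12.6 and 24.8 CPM in ASC and between 2.18 and 11.1 CPM in myoblasts. The annotated 3′ ends of H3c6 and H3c7 share all their 60-base stretches, so their separate levels are uncertain. H4c4 was the second member in ASC, with 22.4, 359, 49.5 and 62.7 CPM. It exceeded H4c9 (2.55, 48.4, 17.1 and 9.35 CPM) and H4c3 (3.5, 13.5, 3.02 and 4.33 CPM) in every library. H4c8 was highest in myoblasts, at 6.06, 16.4, 30.2 and 23.2 CPM. H4 genes held 27.2% of histone UMIs in fiSC, 19.0% in ASC, 6.92% in myoblasts and 8.44% in MPC. The 33 members below 10 CPM reached at most 2.65 CPM in fiSC, 8.83 in ASC, 6.21 in myoblasts and 6.69 in MPC.

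With no replicates, a gene was counted as higher or lower by size: at least 2-fold after adding 5 CPM to both levels, with at least 10 CPM in 1 of the 2 libraries. Genes that reached 10 CPM are called measured here. In ASC against fiSC the summed histone level was 17.3-fold higher (16.7 to 18.0). Of 29 measured members, 28 were higher and 0 lower, where 24.6% of the 9325 genes measured were higher and 21% lower. The exception was H4c8, at 2.7-fold before the 5 CPM were added. Only 4 members reached 10 CPM in fiSC, so most of the 29 were measured through ASC alone, where they were high. The median log2 ratio was 2.41 over these 29 and 1.04 over all 63 members, beside 0.08 over all measured genes. H1f5 was 224-fold higher (172 to 291), H4c4 16.0-fold, H1f4 12.9-fold, H1f2 3.54-fold and H2bc4 2.30-fold.

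In progenitor-like cells, ASC exceeded fiSC 26.0-fold, and 29 of 30 measured members were higher (24.2% of all genes) and 0 lower (23.6%). The macrophage markers still summed to 214 CPM in these ASC cells, against 9.73 CPM in fiSC. The share of cycling cells moved with this difference. Among progenitor-like cells outside the cycle lists described below, ASC (65 cells) held 637 CPM and fiSC (1778 cells) 116 CPM, a 5.50-fold difference (5.04 to 5.99). There 12 of 12 measured members were higher, beside 22.6% of all genes. Most of the 12 were again measured through ASC alone, where they were high. S and G2/M list UMIs were also higher in these ASC cells (694 against 242 CPM, and 684 against 93.5 CPM). Their part in the result was not tested.

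In myoblasts against ASC the summed level was 0.648-fold (0.644 to 0.653), that is, 1.54-fold higher in ASC. Of 30 measured members 18 were lower in myoblasts, where 9.41% of all genes were, and 2 were higher, where 14.3% of all genes were. The median log2 ratio was −1.24 over the 30 members, of which 29 reached 10 CPM in ASC and 17 in myoblasts, and −0.35 over all 63, beside 0.14 over all measured genes. The 2 that were higher were H2ac24 (38.3-fold, 36.8 to 39.9) and H2ac18 (10.2-fold, 9.05 to 11.5). The lower ones included H4c4 (7.25-fold higher in ASC), H2ac4 (7.58-fold), H2ac22 (13.4-fold) and H1f4 (2.51-fold). H1f5, at 0.509-fold, did not pass the size rule, nor did H2ac8, H1f3, H3c2, H2bc4, H4c8, H1f2 and H2bc6 among others.

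The direction was the same in progenitor-like cells, at 0.587-fold with 21 of 31 members lower (4.48% of all genes) and the same 2 higher (13.9%). Among progenitor-like cells with UMIs of both cycle lists, ASC held 3282 CPM and myoblasts 2776 CPM, 0.846-fold. In that set 15 of 33 members were lower (3.92% of all genes) and 2 higher (13.2%). H2ac24 was at 1030 CPM in these myoblasts and 19.8 CPM in these ASC cells. In progenitor-like cells with neither list the ratio was 0.583-fold, with 6 of 14 members lower (8.45% of all genes) and 2 higher (10.7%). Many of the lower members in these sets reached 10 CPM in ASC alone, where they were high. H2ac22, for example, was at 4.18 CPM in progenitor-like myoblasts and 60.2 CPM in progenitor-like ASC.

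In MPC against myoblasts, 2 cultures of which MPC followed a change of medium and 5 more passages, the summed level was 0.827-fold (0.820 to 0.833). Without H2ac24 the sums were 999 CPM in MPC and 1022 CPM in myoblasts, and 995 and 1183 CPM in progenitor-like cells. Of 18 measured members, 0 were higher (6.83% of all genes) and 1 was lower (6.42% of all genes), which was H2bc4 at 38.1 against 87.9 CPM. H2ac24 was at 0.536-fold and H1f5 at 1.09-fold, neither past the size rule. The median log2 ratio was −0.22 over the measured members and 0 over all 63, beside 0.06 over all measured genes. In progenitor-like cells 2 of 19 members, H2bc4 and H2ac24, were lower (7.75% of all genes), at a summed 0.710-fold. Among those with both cycle lists the ratio was 0.595-fold (0.588 to 0.602), 1652 against 2776 CPM, with Mki67 at 366 and 293 CPM there, and 2 of 24 members were lower (7.17% of all genes) and 0 higher (6.78%). The member profiles of the cultures were alike, with Pearson's r = 0.98 over the 63 members on log2(CPM + 1). The same r was 0.81 for ASC with myoblasts, 0.84 for ASC with MPC and 0.64 to 0.68 for fiSC with the others. In progenitor-like cells it was 0.99 for the cultures, 0.81 and 0.84 for ASC with them, and 0.54 to 0.57 for fiSC. By Spearman's rank correlation over all retained cells fiSC stood less apart, at 0.73 to 0.81. That correlation was 0.83 for ASC with myoblasts, 0.87 for ASC with MPC and 0.97 for the cultures. Members are not independent points and share library totals, so these values are descriptions.

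In MPC against fiSC, the cultured progenitors against fresh cells, the summed level was 9.29-fold higher (8.95 to 9.65). Of 16 measured members 13 were higher (27.9% of all genes) and 0 lower (15.8% of all genes). The median log2 ratio was 1.87 over these 16, which reached 10 CPM in MPC but mostly not in fiSC. Over all 63 members it was 0.48, beside 0.35 over all measured genes. These sets are unlike, since most of the 63 lay below 10 CPM, where adding 5 CPM draws the log2 ratio toward 0. H2ac24 (286-fold, 184 to 443) and H1f5 (124-fold, 95.2 to 162) differed most on the scale of the size rule. H2bc6 (2.67-fold), H1f2 (1.68-fold) and H2bc4 (1.05-fold) did not pass it. In progenitor-like cells the ratio was 10.8-fold with 13 of 16 members higher (29.1% of all genes). Outside the cycle lists it was 2.05-fold (1.85 to 2.28), 238 against 116 CPM, with 3 of 6 members higher (27.3% of all genes).

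Within ASC, macrophage-like cells held 534 CPM of histone transcripts and progenitor-like cells 3143 CPM, 0.17-fold. Of 30 measured members 28 were lower in macrophage-like cells (30.9% of all genes) and 1, H2bc4, was higher (20.5% of all genes), at 146 against 59.6 CPM. Most of the 30 reached 10 CPM only in progenitor-like cells, where they were high. H1f2 was at 92.1 against 65.3 CPM and did not pass the size rule. H1f5 was at 44.2 against 846 CPM. Mki67 was at 49.2 and 201 CPM in these classes. In both cultures, muscle differentiation-like cells held less histone RNA than progenitor-like cells: 440 against 1844 CPM in myoblasts and 824 against 1310 CPM in MPC. H2bc4 again went the other way, with 193 against 59.9 CPM in myoblasts and 74.8 against 24.5 CPM in MPC. In MPC with neither cycle list described below, muscle differentiation-like cells held 258 CPM of histone transcripts and progenitor-like cells 238 CPM. With both lists these classes held 1755 and 1652 CPM. In myoblasts with no cycle UMI the same classes held 408 and 390 CPM. In the unnamed MPC clusters the histone sum was 1745 CPM, with Mki67 at 432 CPM.

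To relate the members to the cell cycle within a library, each cell was thinned to 2000 UMIs and called by at least 2 UMIs of an S list of 37 genes and of a G2/M list of 38 genes, neither of which holds a member. Cells with both lists had the highest histone levels. In ASC 2515 such cells held 3256 CPM and 2222 cells with neither list 481 CPM, a 6.77-fold difference. In myoblasts the levels were 2698 and 395 CPM (6.83-fold), and in MPC 1835 and 249 CPM (7.37-fold). In fiSC 19 cells had both lists, too few to be summed, and 1808 cells with neither held 122 CPM. Cells with the S list alone held 1.14-fold to 1.84-fold the level of those with neither, with 140 CPM in fiSC, 884 in ASC, 458 in myoblasts and 312 in MPC. Cells with the G2/M list alone were at 283, 1260, 637 and 840 CPM. In fiSC, 37.5% of the thinned cells held 1 or 2 S list UMIs and so lay near the threshold, as did 25% to 32.4% in the others.

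**Figure D2:**
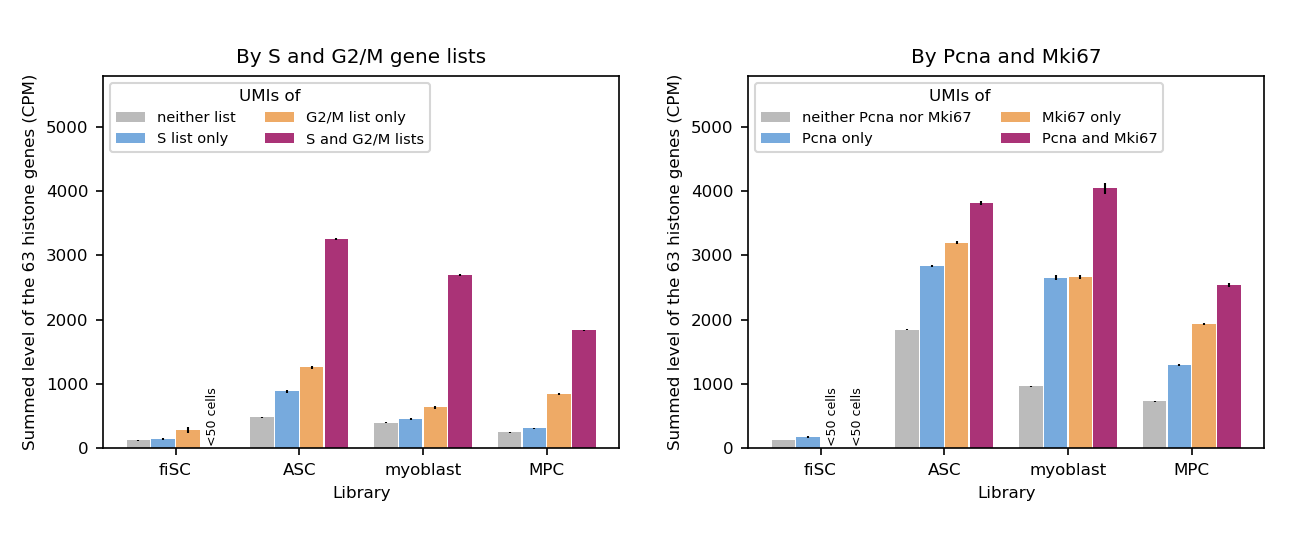
Summed level of the 63 histone genes (CPM) in cells classed by UMIs of the S and G2/M gene lists (left) and of Pcna and Mki67 (right), per library; lines on the bars are exact 95% Poisson intervals and classes under 50 cells are not drawn. In ASC, myoblasts and MPC the class with both markers is highest, at 1835 to 3256 CPM by the lists, while every drawn fiSC class stays at or below 283 CPM.

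Most measured members shared this difference. Between cells with both lists and cells with neither, 29 of 31 measured members were higher in ASC (29.9% of all genes) and 1 was lower (20%). In myoblasts 22 of 24 were higher (6% of all genes) and 1 lower (5.14%), and in MPC 17 of 21 were higher (9.44%) and 1 lower (6.1%). In ASC and myoblasts most measured members, and in MPC several, reached 10 CPM only in cells with both lists, where they were high. H2bc18 in ASC, for example, was at 58.2 CPM there and 3.71 CPM in cells with neither list. The median log2 ratio of the measured members was 2.24, 1.78 and 1.98, and that of all 63 was 1.15, 0.59 and 0.69, beside 0.34, 0.09 and 0.20 over all measured genes. H1f5 was at 878 against 35.6 CPM in ASC, 598 against 13.4 in myoblasts and 516 against 11.8 in MPC. H2ac24 was at 19.6 against 1.11 CPM, 997 against 40.7 and 427 against 11.3. Thus H2ac24 was low in ASC in either class.

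In ASC the classes differ in cell type as well: 2112 of the 2222 cells with neither list were macrophage-like and 2334 of the 2515 with both were progenitor-like. Within progenitor-like ASC the levels were 3282 and 637 CPM (5.16-fold), with 28 of 31 members higher (5.45% of all genes) and 0 lower (11.5%). Within macrophage-like cells they were 1628 and 476 CPM (3.42-fold), with 23 of 26 higher (3.97%) and 0 lower (0.127%). Progenitor-like cells gave 7.48-fold in myoblasts, where 22 of 24 members were higher (4.96% of all genes) and 1 lower (1.11%). They gave 6.94-fold in MPC, with 14 of 19 higher (4.52%) and 1 lower (2.2%). In progenitor-like cells of the 3 libraries too, most measured members reached 10 CPM only in cells with both lists. So did many in macrophage-like cells, such as H2bc18 at 25.5 against 3.52 CPM. Muscle differentiation-like MPC cells gave 6.79-fold (1755 against 258 CPM), with 16 of 19 higher (11.7%) and 1 lower (6.38%). The same limit may apply there.

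The member that was lower in cells with both lists was H2bc4 in each of the 3 libraries. It was at 60.8 against 142 CPM in ASC, 49.1 against 164 CPM in myoblasts and 21.6 against 94.8 CPM in MPC. Within progenitor-like cells it stayed lower in myoblasts (47.5 against 105 CPM) and MPC (21.6 against 55.7 CPM). In progenitor-like ASC it was at 59.8 against 80.3 CPM, and in macrophage-like cells at 136 against 145 CPM, neither past the size rule. H1f2 was nearly level: 68.9 against 89.0 CPM, 46.2 against 45.0 CPM and 38.3 against 36.9 CPM. In cells with neither list these 2 genes held nearly the level of the other 61 together in ASC, at 231 and 250 CPM, and more in the cultures, with 209 and 186 CPM in myoblasts, and 132 and 117 CPM in MPC. In cells with both lists they held 130 CPM of ASC, where the other 61 held 3126 CPM.

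**Figure D3:**
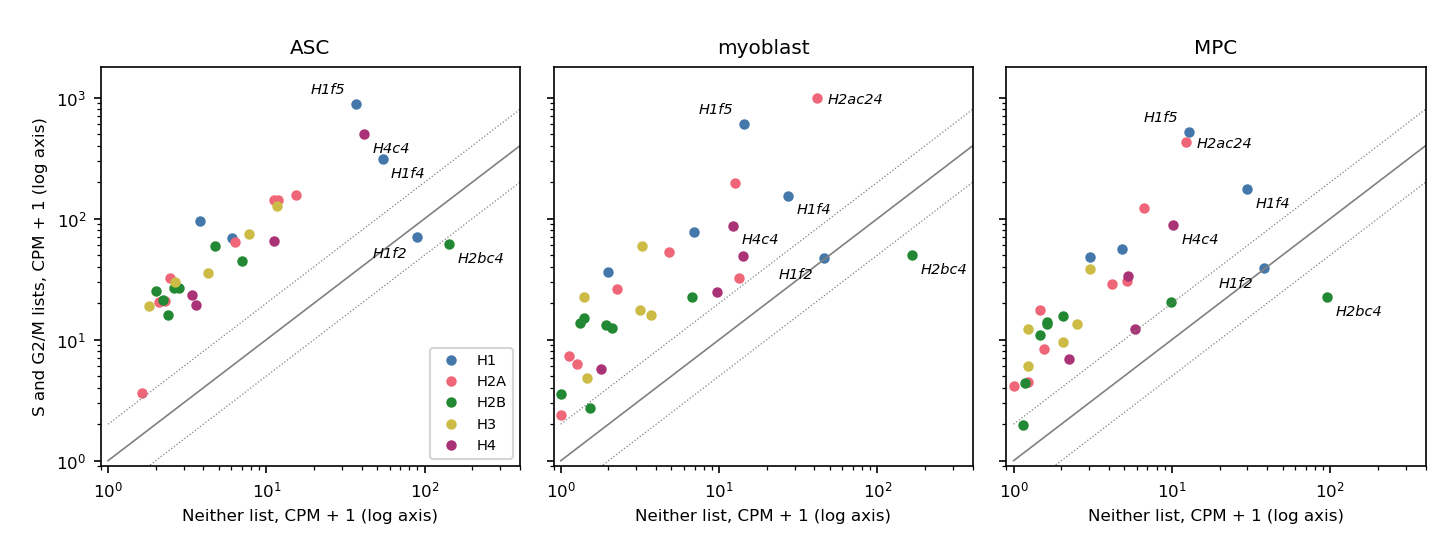
Level of each histone gene with at least 10 CPM in 1 or more libraries, in cells with UMIs of both cycle lists (vertical) against cells with neither (horizontal), as CPM + 1 on log axes, for ASC, myoblasts and MPC; the solid line marks equal levels and the dotted lines a 2-fold difference of CPM + 1. Most points lie above the upper dotted line, H1f2 lies near the solid line, and H2bc4 lies below the lower dotted line in each panel.

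Classes by Pcna and Mki67 themselves gave smaller ratios. Cells with at least 1 thinned Pcna UMI held 3088 CPM in ASC against 1847 CPM in cells with neither gene (1.67-fold), 3084 against 961 CPM in myoblasts (3.21-fold) and 1782 against 729 CPM in MPC (2.44-fold). Of the measured members, 0 of 30 were higher in ASC (0.0117% of all genes), 16 of 23 in myoblasts (1.55%) and 8 of 20 in MPC (0.492%). In ASC 0 were lower (2.83% of all genes) and H2bc4 was lower in myoblasts (2.19%) and in MPC (2.41%). Some measured members reached 10 CPM only in Pcna-positive cells, where they were high, such as H2ac4 in myoblasts at 27.3 against 7.06 CPM. Cells with both Pcna and Mki67 had the highest sums, 3814 CPM in ASC, 4045 in myoblasts and 2537 in MPC. In fiSC the sums were 171 and 129 CPM (1.33-fold), but the direction turned with another thinning seed (0.871-fold), with thinning to 1000 UMIs (0.792-fold) and in progenitor-like cells (0.819-fold). These calls rest on few UMIs: 11.3% to 18.3% of thinned cells held exactly 1 Pcna UMI.

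The make-up of the histone RNA differed between libraries beyond its amount. H2ac24 gave 1.70 UMIs per H1f5 UMI in myoblasts (1.67 to 1.73), 0.838 in MPC (0.826 to 0.849) and 0.0226 in ASC (0.0217 to 0.0235). In fiSC the ratio was 0.364 (0.218 to 0.607), from 20 and 55 UMIs. Among ASC cell sets it was 0.0224 in progenitor-like cells, 0.0289 in macrophage-like cells, 0.0311 in cells with neither list and 0.0224 in cells with both. In myoblasts it was 1.69 in progenitor-like and 1.88 in muscle differentiation-like cells, 3.05 in cells with neither list and 1.67 in cells with both. The ratio therefore differed far more between ASC and the cultures than between cell types or cycle classes within a library. How reads that match several H2A genes were counted is not given in the sources used here, and a difference between libraries in this respect was not tested.

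**Figure D4:**
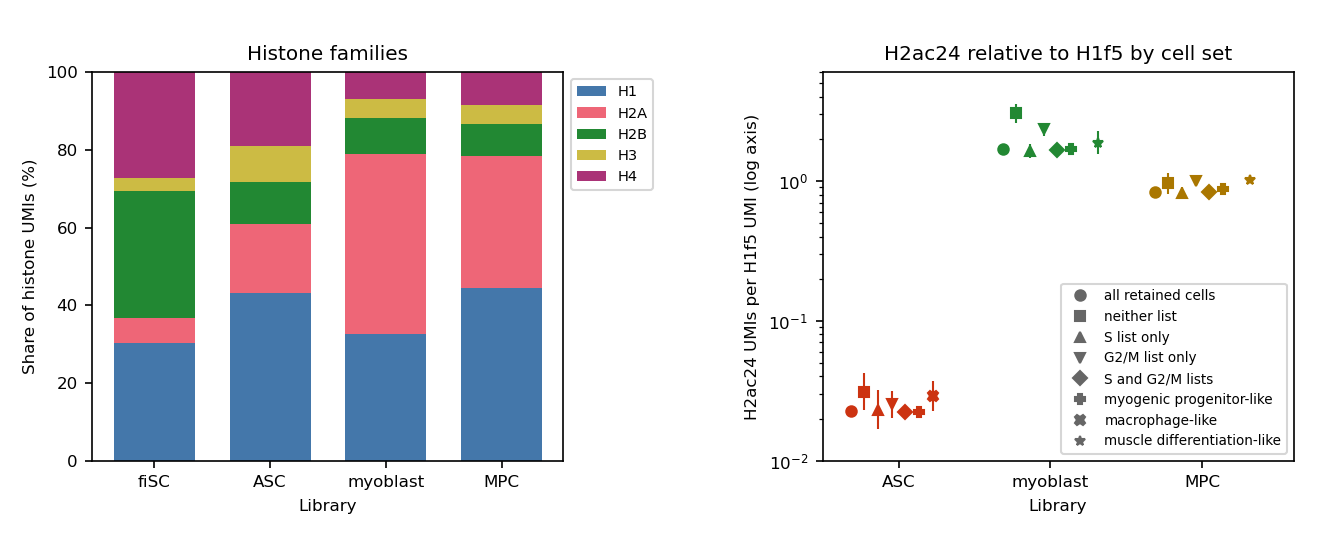
Left, share of histone UMIs (%) by family in each library; right, H2ac24 UMIs per H1f5 UMI on a log axis in the cell sets of ASC, myoblasts and MPC, with 95% counting intervals as lines. H2A genes make up 46.2% in myoblasts, where H2ac24 alone holds 34.3% of histone UMIs, and 18.0% in ASC. On the right, each ASC set lies far below every set of the cultures.

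The position of the annotated 3′ end gave a further view of what was captured. The 18 members annotated at least 100 bases past the stem-loop held 57.4% of histone UMIs in fiSC, 42.6% in ASC, 25.8% in myoblasts and 31.1% in MPC. The 22 members that end near the stem-loop held 9.88%, 17.9%, 45.0% and 33.8%. Of this group's 430, 700 and 434 CPM in ASC, myoblasts and MPC, H2ac24 alone held 13.9, 534 and 286 CPM. The 23 members with no match held 32.7%, 39.5%, 29.2% and 35.1%. H2ac24, whose printed site follows 12 A, belongs to the second group and had its highest level in myoblasts. H2ac23, with the same A run, was at 0.0501, 0.430, 0.0733 and 0.0745 CPM in fiSC, ASC, myoblasts and MPC. Whether the UMIs of H2ac24 arose from priming on that A run or on a polyA tail was not tested, since read positions are not in the count tables used here.

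Genes that act on histone messages and proteins were given as background. Slbp was at 62.0, 95.9, 57.8 and 95.9 CPM in fiSC, ASC, myoblasts and MPC, and passed the size rule in no comparison of the libraries. Of the 17 histone mRNA processing genes, 4 of 15 measured were higher and 1 lower in ASC than in fiSC, where 24.6% of all genes were higher and 21% lower, so the share of higher genes was near that of all genes. The higher ones were Lsm10 of the U7 particle, the cleavage factors Cpsf2 and Cpsf3, and Lsm1. The lower one was Tut7, a terminal uridylyltransferase, at 57.9 against 135 CPM. Between myoblasts and ASC 0 of 15 passed in either direction, where 14.3% of all genes were higher and 9.41% lower. Between MPC and myoblasts 0 of 16 passed, where 6.83% were higher and 6.42% lower.

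Of 12 histone chaperones, 9 were higher and 0 lower in ASC than in fiSC (24.6% and 21% of all genes). In MPC against fiSC 8 were higher and 0 lower (27.9% and 15.8% of all genes). Nasp, which carries H3 and H4, was at 111, 454, 214 and 206 CPM, and Npm1 at 832, 3511, 1527 and 1635 CPM. These 2 were the chaperones lower in myoblasts than in ASC. The replication-independent histone genes, whose messages are typically polyadenylated, had higher sums than the members in every library: 3612, 5268, 2880 and 2949 CPM. Of 11 measured, 8 were higher and 0 lower in ASC than in fiSC (24.6% and 21% of all genes), among them H2az1 (378 and 1923 CPM). H3f3b was at 1937, 1664, 788 and 614 CPM and was lower in MPC than in fiSC. Of the S list, 35 of 37 measured genes were higher in ASC than in fiSC (24.6% of all genes) and 34 of 35 in MPC than in fiSC (27.9%). Of the G2/M list, 37 of 37 and 38 of 38 were higher. Between myoblasts and ASC, 1 S gene of 37 was lower and 0 were higher, where 9.41% of all genes were lower and 14.3% higher.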

How the data were processed

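Single cells were measured in 4 libraries, 1 per group, with a 10x Genomics droplet kit for 3′ ends (version 3.1 chemistry). The authors deposited a UMI count per gene and cell barcode, and the submitters' processing notes name STAR 2.7.10b and GRCm39. The annotation, strand, UMI collapsing and treatment of reads that match several genes are not given in the sources used here. A barcode was kept if it had 1000 UMIs or more, 500 genes or more and no more than 10% of its UMIs from mitochondrial genes. Doublets were called with scanpy 1.11.5: 295 were removed from ASC by the automatic threshold (4.37%). In fiSC, myoblasts and MPC that threshold marked under 0.5% of cells, so cells at or above the score quantile that 0.8% per 1000 cells sets were removed. Cells tied at that score were included, which gave 66, 61 and 836 cells. Of the deposited barcodes 2705, 10818, 2993 and 11847 in fiSC, ASC, myoblasts and MPC, the cells given above remained, with 19975483, 179109303, 54581416 and 134273031 UMIs.

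Each library was clustered by itself (2000 variable genes without the histone and cell cycle genes, 30 components, 15 neighbours, Leiden resolution 0.5), and clusters were named from marker lists. Details of the naming rule and the 100-base limit past the stem-loop were set after seeing the data. UMIs were summed over cells and scaled to CPM, with exact Poisson intervals for sums and Clopper-Pearson intervals for shares (95%). UMI intervals and the floor of 3 counts cover counting error only. For members at 10 CPM or more, the interval's half-width was at most 10.5% of the level in fiSC, 4.45% in ASC, 8.03% in myoblasts and 5.34% in MPC. For cell cycle classes, cells were thinned to 2000 UMIs, which left out 50, 641, 76 and 207 shallower cells of fiSC, ASC, myoblasts and MPC. Members with at least 10 CPM in 1 library were given by name, and the others by count and range. The members and lists were chosen with earlier results of these data known. Stem-loops were searched in GENCODE vM21 transcripts (GRCm38), where 63 of 63 members matched by gene identifier, and motifs in the RefSeq promoter table. The scripts were tested on simulated data. They used Python 3.11.15, numpy 2.4.6, scipy 1.17.1, pandas 2.3.3, igraph 0.11.9, scikit-learn 1.9.0 and matplotlib 3.10.9, with edgeR 4.0.16 for TMM factors as an alternative. Alternatives covered the cell filter, doublets, cell sets, scaling, pseudocount, minimum level, thinning and cycle calls.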

Additional observations from a re-analysis of the deposited data

How the results depend on the processing

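No paired analysis was possible because each group was 1 library. The cause of the shifts below was not tested. The summed histone level was 138 CPM in fiSC, 2398 in ASC, 1555 in myoblasts and 1286 in MPC. In progenitor-like cells only it was 121, 3143, 1844 and 1310 CPM, and as a mean over cells 126, 1884, 1374 and 1210 CPM. A strict filter (at least 2000 UMIs and at most 5% mitochondrial) gave 2258 CPM in ASC, 1490 in myoblasts and 1478 in MPC, so the cultures then lay at the same level. All deposited barcodes gave 2380, 1461 and 1243 CPM. In myoblasts, keeping doublets gave 1536 CPM and leaving out barcodes shared between libraries, an alternative chosen after seeing the data, 1572 CPM. Of the counts of members, the 28 higher in ASC than in fiSC became 12, the 18 lower in myoblasts than in ASC became 6, and the 13 higher in MPC than in fiSC became 3, in progenitor-like cells with neither cycle list, where fewer members reached 10 CPM. The 1 lower in MPC than in myoblasts became 0 with all deposited barcodes, 2 in progenitor-like cells and 2 in those with both lists. The sets by cycle list were also added after seeing the data. The ratio of Pcna-positive cells to cells with neither gene, 1.33 in fiSC, 1.67 in ASC, 3.21 in myoblasts and 2.44 in MPC, was 0.792, 1.59, 2.37 and 1.83 when thinned to 1000 UMIs. It was 0.871, 1.65, 2.96 and 2.32 with another seed, and 0.819, 1.30, 2.84 and 1.94 in progenitor-like cells. The fiSC ratio thus turned its direction under each of these 3. With classes by the S list in place of Pcna it was 1.77, 6.40, 5.71 and 6.27 at 2 UMIs, and 3.41, 6.5, 7.01 and 6.76 at 3 UMIs. With doublets kept it was 1.64 in ASC and 2.21 in MPC, and without shared barcodes 3.15 in myoblasts. TMM factors, a pseudocount of 1 CPM and no minimum level left each count of members within 1.5 times its main value. Depth limits fiSC most: there 0 UMIs allow up to 0.150 CPM, against 0.0167 CPM in ASC.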
